A study of Mus musculus with 16 samples.

Results

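The 28 genes described here make cholesterol, set the rate of its synthesis, or move and dispose of it. They comprise 8 enzymes of the mevalonate steps, 11 enzymes of the sterol steps, 4 regulators and 5 genes of transport and turnover, and were found by matching their symbols to the gene names of the count table. All 28 were found once among its 55385 genes, and all 28 were among the 17132 genes that passed the filter on low counts. Polyadenylated RNA of the hippocampus was sequenced from mice aged 9 months, in 16 libraries. The 4 groups, each of 4 libraries from 2 females and 2 males, were 5xFAD-Dp16, 5xFAD, Dp16 and wild-type C57BL/6J (WT). Dp16 mice carry a duplication of the stretch of mouse chromosome 16 that matches most of human chromosome 21, so its genes are present in 3 copies, while other chromosome 21 orthologs, on other mouse chromosomes, keep their normal copy number. 5xFAD mice carry human transgenes with familial Alzheimer mutations under Thy1 promoter sequences, which drive them mainly in neurons. 5xFAD-Dp16 mice carry both, and no treatment is recorded for any group. The background strain of the 3 mutant groups is not given in the sources used here. Each library is named by its group and its number in the labels. Per-library values below follow the order 1, 8, 9 and 11 in 5xFAD-Dp16, 6, 10, 13 and 15 in 5xFAD, 3, 5, 12 and 14 in Dp16, and 2, 4, 7 and 16 in WT. The design implies the question of whether the duplication and the transgenes add up on these genes.

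As background, brain cholesterol is made within the brain, because lipoproteins of the blood do not cross the blood-brain barrier. Acetyl-CoA is built into mevalonate and then into squalene, which is closed into a ring and trimmed to cholesterol. When sterol in the endoplasmic reticulum is low, Scap escorts the transcription factor SREBP2 (made from Srebf2) to the Golgi, where it is cut and freed to switch on nearly every gene of the route, and the Insig proteins hold Scap back when sterol is plentiful. In the adult brain oligodendrocytes and astrocytes are the main makers, and neurons remove the excess as 24-hydroxycholesterol through Cyp46a1.

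Library totals ran between 16922937 and 25308693 counts, and mitochondrial transcripts took 4.96% to 6.87% of them. The genotype labels were borne out by dose. App, inside the duplication, was 1.47-fold in 5xFAD-Dp16 and 1.59-fold in Dp16 relative to WT, and Thy1, whose sequences the transgenes carry, was 2.68-fold in 5xFAD (edgeR adjusted p = 0.000329, 0.000856 and 2.12e-05). None of the 28 genes lies on chromosome 16, and Lss, on chromosome 10, is a chromosome 21 ortholog outside the duplication. All 8 hippocampal markers were present, with summed levels of 799 to 1110 CPM (counts after scaling for library depth) in 5xFAD-Dp16, 456 to 901 in 5xFAD, 788 to 1240 in Dp16 and 843 to 1180 in WT. In 5xFAD relative to WT all 8 had negative log2 values (median -0.62), and 1 was called lower, where 1.96% of all genes tested were. The part of this difference in the 5xFAD results was not tested. Markers of thalamus were high (a mean of more than 0.5 on the log2 scale above the WT mean) in 6 libraries, namely 5xFAD-Dp16 1, 5xFAD 6, 13 and 15, Dp16 14 and WT 4. They were 3 of the 5xFAD libraries and 1 of each other group, and results that rest on them are given with and without them.

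Levels per gene length, as the deposited RPKM, spanned a wide range in these hippocampi. Hmgcs1, the synthase that joins acetyl-CoA to acetoacetyl-CoA, was the highest at 70.6 ± 10.1 RPKM (SD, 16 libraries), followed by Cyp46a1 at 70.2 ± 8.13, and these neighbours did not differ beyond their spread. Their order rests on 5xFAD-Dp16, where Hmgcs1 had 84.2 and Cyp46a1 72.6 RPKM, and turns round in Dp16, with 70.4 and 72 RPKM, and in WT, with 59.4 and 69.3 RPKM. Srebf2 followed at 54.1 ± 5.8 RPKM, and then Msmo1, a C4-demethylase of the sterol ring, at 35.6 ± 4.07. The lowest were Idi1 at 4.05 ± 0.522 and Hsd17b7 at 4.01 ± 0.387 RPKM, which also did not differ beyond their spread. Mean counts were between 190 for Tm7sf2 and 6130 for Srebf2. Relative counting error was therefore largest for Tm7sf2, with 106 to 290 counts per library, and for Idi1, with 188 to 387. Within WT the coefficient of variation of CPM was between 1.25% for Msmo1 and 20.1% for Tm7sf2.

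**Figure D1:**
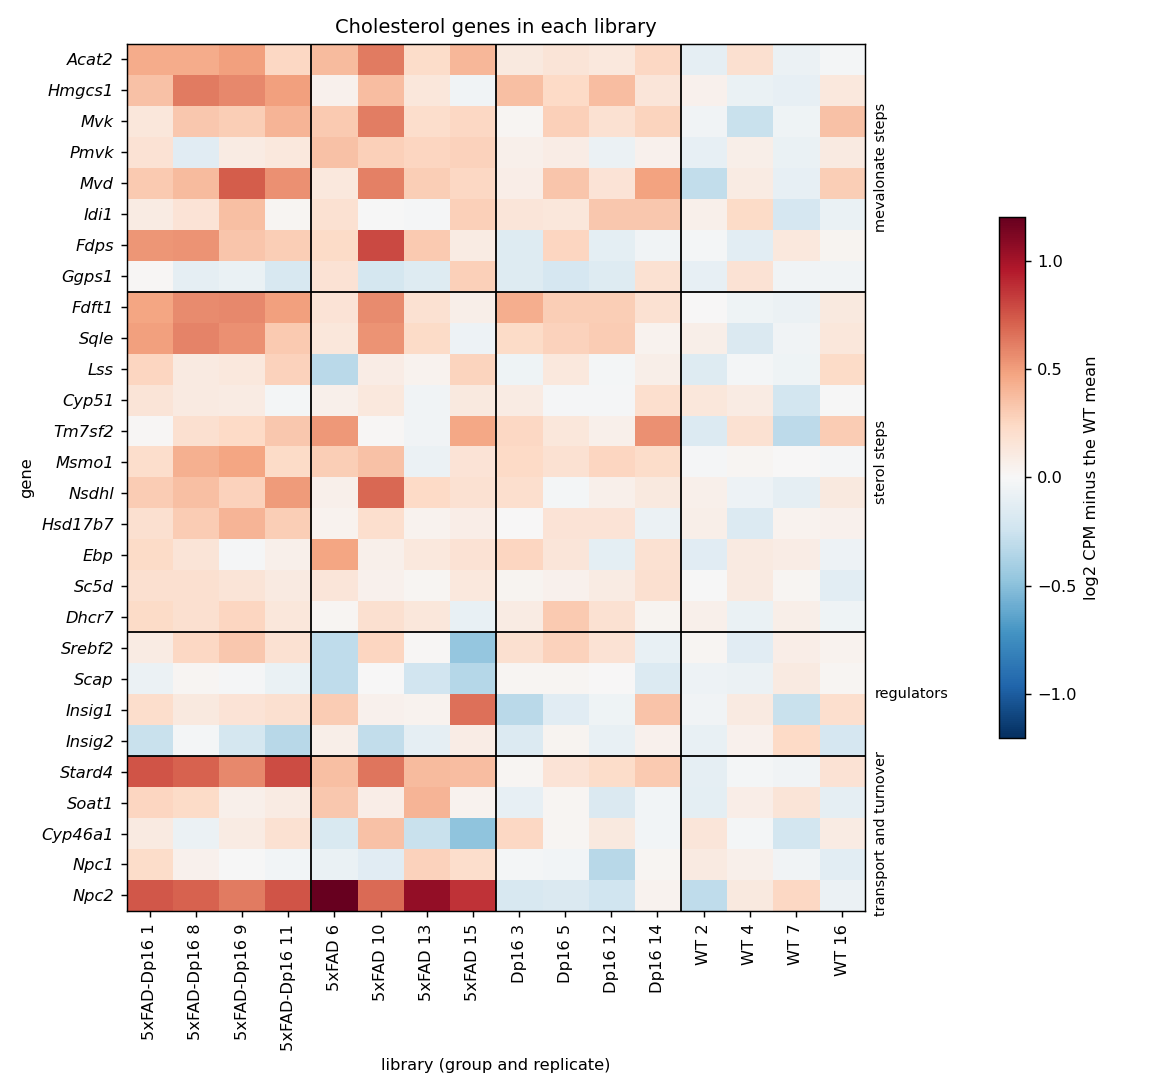
Difference of each library's log2 CPM from the WT mean for the 28 genes (rows, by role) in the 16 libraries (columns, by group and replicate number). Red is above and blue below the WT mean. The 5xFAD-Dp16 columns are red over most synthesis rows, with Hmgcs1 at 265 to 321 CPM against 194 to 227 CPM in WT, and Npc2 and Stard4 stand out in the transgenic groups.

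The largest set of changes was found in 5xFAD-Dp16 hippocampi relative to WT. Of 28 members, 8 rose and none fell, where 3.1% of all genes tested rose and 0.0992% fell. Those that rose were 6 synthesis enzymes (Acat2, Hmgcs1, Mvd, Fdft1, Sqle and Msmo1), the sterol carrier Stard4 and the lysosomal sterol carrier Npc2, by 1.26-fold to 1.63-fold. The median log2 difference was 0.28 over the 19 synthesis enzymes, of which 18 had positive values, against -0.011 over all genes tested, of which 47.3% were positive. In 14 members every 5xFAD-Dp16 library lay above every WT library, as in 6.1% of all genes tested. In bulk tissue, a change in the number of cells of a type and a change in RNA per cell cannot be told apart. Each library is taken as 1 mouse from the design text, and p-values measure the spread between these libraries.

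Hmgcs1 had 265, 321, 310 and 293 CPM in 5xFAD-Dp16, 215, 269, 229 and 202 CPM in 5xFAD, 268, 245, 268 and 229 CPM in Dp16, and 215, 197, 194 and 227 CPM in WT. The 5xFAD-Dp16 and Dp16 libraries all lay above the WT ones, though Dp16 14 by very little, and the 5xFAD libraries overlapped WT, with 5xFAD 10 the highest of them. The difference from WT in 5xFAD-Dp16 was 0.51 ± 0.096 on the log2 scale (SE of the fit), or 1.43-fold (edgeR quasi-likelihood test, adjusted p = 0.00377). Fdft1, squalene synthase, commits farnesyl diphosphate to sterols. It had 123, 132, 133 and 124 CPM in 5xFAD-Dp16, 99.4, 131, 101 and 92.7 CPM in 5xFAD, 120, 109, 109 and 101 CPM in Dp16, and 89, 85.5, 84.3 and 96.1 CPM in WT. All 5xFAD-Dp16 libraries were above all Dp16 and all WT libraries, and Dp16 was above WT without overlap. It rose 1.44-fold in 5xFAD-Dp16 relative to WT (0.53 ± 0.092, edgeR adjusted p = 0.00221). Sqle, the epoxidase after it, had 79, 84.6, 81.8 and 69.5 CPM in 5xFAD-Dp16, 61.7, 81.6, 65.6 and 53.7 CPM in 5xFAD, 65.5, 67.9, 69 and 57.8 CPM in Dp16, and 58.9, 49.7, 54.4 and 61.7 CPM in WT. The same 5xFAD library, 10, reached the 5xFAD-Dp16 range while the other 5xFAD libraries stayed near WT. Sqle rose 1.4-fold in 5xFAD-Dp16 relative to WT (0.49 ± 0.11, edgeR adjusted p = 0.0236).

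Acat2, the thiolase that makes acetoacetyl-CoA, had 31, 31.2, 32.1 and 27.1 CPM in 5xFAD-Dp16, 29.7, 35.2, 26.7 and 30.2 CPM in 5xFAD, 24.7, 25.3, 24.9 and 27.2 CPM in Dp16, and 21.2, 26.2, 21.8 and 22.5 CPM in WT. Both transgenic groups lay above WT without overlap, and Dp16 overlapped all 3 other groups. Acat2 rose 1.33-fold in 5xFAD-Dp16 relative to WT (0.41 ± 0.081, edgeR adjusted p = 0.0063), although it shares sequence with its copy Acat3, which had 34 to 124 counts per library. Mvd, the decarboxylase that ends the mevalonate steps, had 20.7, 21.7, 27.7 and 24.4 CPM in 5xFAD-Dp16 and 13.6, 17.8, 15.5 and 20.4 CPM in WT. These groups were separated by a narrow gap between 5xFAD-Dp16 1 and WT 16, and the rise was 1.41-fold (0.49 ± 0.12, edgeR adjusted p = 0.037). Msmo1 had 73.6, 85.3, 88.2 and 74.4 CPM in 5xFAD-Dp16, 78, 81.3, 60.7 and 71.4 CPM in 5xFAD, 74.9, 72, 76.3 and 74 CPM in Dp16, and 63, 64.6, 64 and 63 CPM in WT. The WT libraries were tightly grouped, all Dp16 and 5xFAD-Dp16 libraries were above them, and 5xFAD 13 was below them. Msmo1 rose 1.26-fold in 5xFAD-Dp16 relative to WT (0.33 ± 0.081, edgeR adjusted p = 0.0282).

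Leaving out each of the 16 libraries in turn kept the calls of Acat2, Hmgcs1, Fdft1, Stard4 and Npc2 in 5xFAD-Dp16 relative to WT, and gave between 5 and 10 members that rose. The call of Mvd was lost in 7 of these fits (without 5xFAD-Dp16 1, 9 or 11, Dp16 12, or WT 2, 4 or 7; log2 0.43 to 0.57 over all 16). That of Sqle was lost in 5 (without 5xFAD-Dp16 1, 8 or 9, or WT 4 or 7; 0.43 to 0.54), and that of Msmo1 in 5 (without 5xFAD-Dp16 8 or 9, or WT 2, 4 or 16; 0.30 to 0.37). When the 6 high-thalamus libraries were left out, which leaves 1 library in 5xFAD, Mvd had 0.54 and was no longer called. Mvd also lost its call without the sex term, and Mvd and Msmo1 with limma on unfiltered RPKM. Markers of microglia, astrocytes and oligodendrocytes, given below, were measured in the same libraries, and their part in the enzyme differences was not tested.

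The windows around the start of the gene are shown for 4 of the members that rose, 3 enzymes and the lysosomal Npc2, because SREBP2 acts through sites there together with the CCAAT-binding factor NF-Y. Each runs from 250 bases before to 50 after a RefSeq start on GRCm38.p6, and capitals mark the sterol regulatory element letters TCACNCCAC and the CCAAT box, on either strand.

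Hmgcs1 promoter, chr13:119690101-119690400, plus strand: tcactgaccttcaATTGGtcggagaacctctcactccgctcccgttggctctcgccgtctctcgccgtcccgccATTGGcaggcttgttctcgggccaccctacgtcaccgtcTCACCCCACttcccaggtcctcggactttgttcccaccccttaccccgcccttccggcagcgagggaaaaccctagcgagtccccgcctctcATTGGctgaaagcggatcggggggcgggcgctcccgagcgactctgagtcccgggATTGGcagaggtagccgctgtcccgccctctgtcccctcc

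Mvd promoter, chr8:122443373-122443672, minus strand: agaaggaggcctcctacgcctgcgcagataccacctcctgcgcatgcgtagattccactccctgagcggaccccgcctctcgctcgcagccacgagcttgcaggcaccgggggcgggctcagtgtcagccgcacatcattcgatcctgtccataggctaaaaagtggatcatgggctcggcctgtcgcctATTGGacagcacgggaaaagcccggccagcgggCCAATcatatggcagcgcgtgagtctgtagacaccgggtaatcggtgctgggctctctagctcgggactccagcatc

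Msmo1 promoter, chr8:64733529-64733828, minus strand: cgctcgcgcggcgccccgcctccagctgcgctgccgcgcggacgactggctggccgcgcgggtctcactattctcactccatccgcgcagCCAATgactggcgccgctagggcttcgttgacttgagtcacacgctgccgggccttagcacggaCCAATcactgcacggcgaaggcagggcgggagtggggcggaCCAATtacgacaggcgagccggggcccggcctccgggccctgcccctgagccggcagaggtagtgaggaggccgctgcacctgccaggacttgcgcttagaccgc

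Npc2 promoter, chr12:84773063-84773362, minus strand: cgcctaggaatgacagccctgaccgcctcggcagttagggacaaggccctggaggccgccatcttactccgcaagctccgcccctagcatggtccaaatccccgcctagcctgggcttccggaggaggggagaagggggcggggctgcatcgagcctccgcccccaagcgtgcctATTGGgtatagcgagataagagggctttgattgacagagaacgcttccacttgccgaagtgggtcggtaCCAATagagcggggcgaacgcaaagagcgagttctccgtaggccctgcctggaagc

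Hmgcs1 held the sterol regulatory letters as TCACCCCAC, 137 bases before its start, and 4 CCAAT boxes. Mvd and Npc2 held 2 CCAAT boxes each and Msmo1 held 3, with no match to TCACNCCAC. Acat2, which also rose and whose window is not shown, held neither TCACNCCAC nor CCAAT. Fdft1, Sqle and Stard4 had no window. Of the 23 members with a window in the RefSeq table, 1 held TCACNCCAC and 21 held CCAAT in at least 1 window, against 1.44% and 41.1% of all 27025 genes with a window. The GC box GGGCGG, bound by Sp1, was present in 21 of the 23 against 38.2% of all genes. None of these motifs contains another, and a match is a description of the sequence, not evidence of binding.

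**Figure D2:**
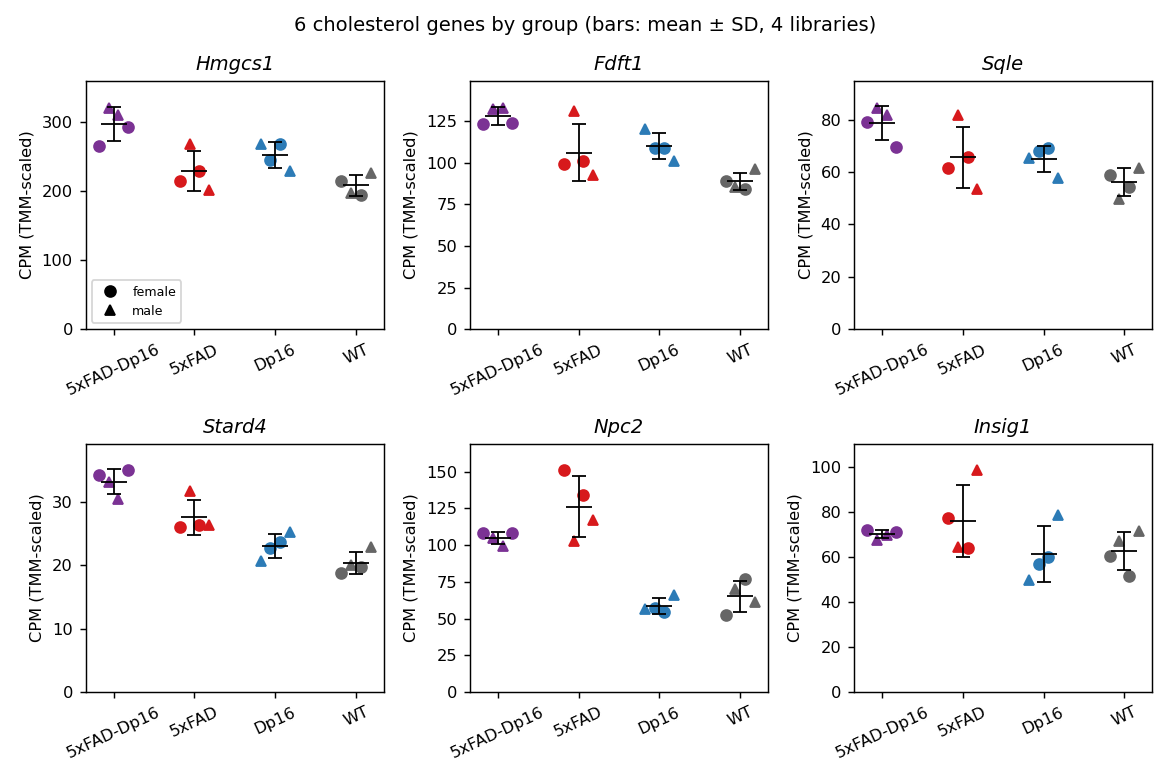
TMM-scaled CPM of 6 genes in each library (circles female, triangles male) by group, with the group mean and SD as bars and axes starting at 0. Fdft1, Sqle and Stard4 in 5xFAD-Dp16 lie above Dp16 and WT, Hmgcs1 in 5xFAD-Dp16 lies above WT and overlaps Dp16 (265 to 321 against 229 to 268 CPM), Npc2 is at 99.3 to 151 CPM in the transgenic groups and 52.3 to 76.7 CPM in the others, and Insig1 spreads widely in 5xFAD and Dp16.

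Transport and turnover was the class with the largest single differences. Stard4, a soluble carrier of sterol between membranes and a known SREBP2 target, had 34.2, 33.2, 30.4 and 35 CPM in 5xFAD-Dp16, 26, 31.7, 26.4 and 26.3 CPM in 5xFAD, 20.6, 22.7, 23.6 and 25.3 CPM in Dp16, and 18.8, 20, 19.8 and 22.9 CPM in WT. Both transgenic groups were above Dp16 and WT without overlap, and Dp16 overlapped WT. Stard4 rose 1.63-fold in 5xFAD-Dp16 relative to WT (0.71 ± 0.092 on the log2 scale, edgeR adjusted p = 0.000142), 1.44-fold in 5xFAD-Dp16 relative to Dp16 (0.53 ± 0.092, adjusted p = 0.00223) and 1.36-fold in 5xFAD relative to WT (0.44 ± 0.092, adjusted p = 0.00855). Leaving out any 1 of the 16 libraries kept all 3 calls. Without the 6 libraries of high thalamus markers, which leaves 1 library in 5xFAD, Stard4 had 0.64 in 5xFAD relative to WT and was no longer called (edgeR adjusted p = 0.0512).

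Npc2, which takes cholesterol from the lysosomal lumen and hands it to Npc1 in the membrane, had 108, 105, 99.3 and 108 CPM in 5xFAD-Dp16, 151, 103, 134 and 117 CPM in 5xFAD, 56.5, 56.9, 54.7 and 66.3 CPM in Dp16, and 52.3, 70, 76.7 and 61.3 CPM in WT. The transgenic groups were wholly above the others, and Dp16 and WT overlapped. Npc2 rose 1.61-fold in 5xFAD-Dp16 relative to WT (0.69 ± 0.12, edgeR adjusted p = 0.00217), 1.93-fold in 5xFAD relative to WT (0.95 ± 0.12, adjusted p = 9e-05) and 1.79-fold in 5xFAD-Dp16 relative to Dp16 (0.84 ± 0.12, adjusted p = 0.000399). Its partner Npc1 averaged 104 ± 8.44, 106 ± 15, 94.5 ± 10.1 and 100 ± 7.33 CPM in 5xFAD-Dp16, 5xFAD, Dp16 and WT (SD, n = 4 each), and was called in no comparison. Microglial markers moved with Npc2. All 10 rose in 5xFAD relative to WT and 8 of 10 in 5xFAD-Dp16 relative to WT, and their summed level was 1080 to 1260 CPM in 5xFAD-Dp16, 1070 to 1960 in 5xFAD, 419 to 497 in Dp16 and 405 to 494 in WT. Their part in the Npc2 result was not tested.

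Soat1, which esterifies cholesterol for storage, averaged 42.7 ± 2.87 CPM in 5xFAD-Dp16, 44.5 ± 5.57 in 5xFAD, 36.4 ± 2.08 in Dp16 and 38.3 ± 3.61 in WT. It was called in no single pair of groups, and its mean 5xFAD effect over both backgrounds was 0.22 ± 0.064 (edgeR adjusted p = 0.0404), a call lost in 10 of the 16 single-library fits (log2 0.19 to 0.25), in those without 5xFAD-Dp16 1, 8 or 9, 5xFAD 6 or 13, Dp16 3, 5 or 12, or WT 2 or 16. Soat1 also lost it without the high-thalamus libraries (0.18, adjusted p = 0.398), with the oligodendrocyte covariate (0.20, adjusted p = 0.117), with DESeq2 size factors, without the filter on low counts and with limma on unfiltered RPKM. The microglial markers move with this difference as well, and their part in it was not tested. Cyp46a1, the neuronal 24-hydroxylase, had 158, 140, 158 and 167 CPM in 5xFAD-Dp16, 130, 187, 122 and 106 CPM in 5xFAD, 175, 150, 159 and 144 CPM in Dp16, and 163, 145, 127 and 157 CPM in WT. The 5xFAD libraries spanned the whole range of the other groups, with 5xFAD 10 the highest of all 16 and 5xFAD 15 the lowest. No comparison called Cyp46a1 over all 16 libraries, and its log2 difference between 5xFAD and WT depended on 5xFAD 10, being -0.12 ± 0.14 with it and -0.32 without it (edgeR adjusted p = 0.636 and 0.0371), and 0.30 without the libraries of high thalamus markers. Neuronal marker scores moved with these libraries, at 0.00 in 5xFAD 10 and -0.65 in 5xFAD 15 (log2 against the WT mean), and their part was not tested. In 5xFAD relative to WT without 5xFAD 10, 3486 of 17440 genes were called in either direction, against 1244 of 17132 with it. The 5xFAD libraries kept there all had high thalamus markers.

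The transgenes alone, in 5xFAD relative to WT, raised 4 members and lowered none, where 5.31% of all genes tested rose and 1.96% fell. In 4 members every 5xFAD library lay above every WT library, against 7.62% of all genes. The median over the 19 synthesis enzymes was 0.21 with 19 positive values, against 0.027 over all genes tested with 53.8% positive, and 12 members had an unadjusted p under 0.05, against 24.9% of all genes. Without 5xFAD 6 the synthesis median was 0.13, with 18 positive. Besides Stard4 and Npc2 those that rose were Acat2, 1.33-fold (0.41 ± 0.081, edgeR adjusted p = 0.00564), and Pmvk, phosphomevalonate kinase. Pmvk had 34, 27.5, 32.4 and 32.9 CPM in 5xFAD-Dp16, 38.4, 36.9, 36 and 36.6 CPM in 5xFAD, 31.5, 32.1, 28.7 and 31.3 CPM in Dp16, and 28.1, 31.7, 28.6 and 32.5 CPM in WT. The 5xFAD libraries stood above all others, including those of 5xFAD-Dp16. Pmvk rose 1.22-fold in 5xFAD relative to WT (0.29 ± 0.080, edgeR adjusted p = 0.0375). That call was lost in 8 of the 16 single-library fits (log2 0.25 to 0.32), in those without 5xFAD-Dp16 9, 5xFAD 6 or 15, Dp16 3 or 5, or WT 2, 4 or 7. Pmvk also lost it in 6 of 11 other alternatives, among them the fit without the libraries of high thalamus markers. Acat2 kept its call in all single-library fits and lost it when 5xFAD and WT were fitted alone.

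On the Dp16 background, in 5xFAD-Dp16 relative to Dp16, Stard4 and Npc2 rose and no member fell, where 2.99% of all genes tested rose and 0.035% fell. In 8 members (Fdps, Fdft1, Sqle, Nsdhl, Hsd17b7, Stard4, Soat1 and Npc2) the 5xFAD-Dp16 libraries were wholly above those of Dp16, as in 6.56% of all genes tested. The synthesis enzymes had a median of 0.11 with 15 of 19 positive, against -0.0073 over all genes tested with 48.5% positive. Averaged over both backgrounds, the transgenes raised 7 members (Acat2, Fdps, Fdft1, Nsdhl, Stard4, Soat1 and Npc2) and lowered none, where 6.61% of all genes tested rose and 1.98% fell. All 19 synthesis enzymes had positive values with a median of 0.16, against 0.013 over all genes tested with 52.6% positive. Fdps, farnesyl diphosphate synthase, had 28.1, 28.1, 24.5 and 23.8 CPM in 5xFAD-Dp16, 22.6, 33.6, 24.1 and 20.7 CPM in 5xFAD, 17.3, 23.1, 17.8 and 18.8 CPM in Dp16, and 19, 17.7, 21.1 and 19.7 CPM in WT. Its transgenic libraries were above the others apart from an overlap of 5xFAD 6 and 15 with Dp16 5 and WT 7. The mean transgene effect on Fdps was 0.41 ± 0.098 (1.33-fold, edgeR adjusted p = 0.0139) and its mean duplication effect 0.02 ± 0.098 (adjusted p = 0.941). Nsdhl, an X-linked sterol dehydrogenase, had a mean transgene effect of 0.29 ± 0.079 (1.23-fold, adjusted p = 0.0294), and Fdft1 one of 0.24 ± 0.065 (1.18-fold, adjusted p = 0.0298). Nsdhl lost its call in 6 single-library fits (without 5xFAD-Dp16 1 or 11, Dp16 5 or 12, or WT 4 or 7; log2 0.22 to 0.32) and Fdft1 in 7 (without 5xFAD-Dp16 9 or 11, Dp16 5 or 12, or WT 2, 4 or 7; 0.18 to 0.28). Acat2, Fdps, Stard4 and Npc2 lost theirs in none. Fdft1 also lost its call with DESeq2 size factors.

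The duplication alone, in Dp16 relative to WT, gave no member called in either direction with edgeR or with DESeq2, where 0.222% of all genes tested rose and 0.00584% fell. At an unadjusted edgeR p under 0.05 there were 4 members (Hmgcs1, Mvd, Fdft1 and Msmo1), all positive, where 5.7% of all genes tested passed in either direction. Groups did not overlap for Hmgcs1, Fdft1 and Msmo1, with Dp16 above WT, as in 2.41% of all genes tested. All 8 markers of choroid plexus, a neighbouring tissue, had negative values in Dp16 relative to WT, 4 of them at an unadjusted p under 0.05 and none called, with summed levels of 50.7 to 960 CPM in Dp16 and 457 to 8130 CPM in WT (72.4 to 2990 CPM in 5xFAD-Dp16 and 60.3 to 6140 CPM in 5xFAD). All 5 markers of meningeal fibroblasts had negative values too, with sums of 81.3 to 95.1 CPM in Dp16 and 76.8 to 193 CPM in WT. Their part in the differences of the enzymes was not tested. The log2 differences of Hmgcs1, Fdft1 and Msmo1 were 0.28 ± 0.096, 0.30 ± 0.092 and 0.22 ± 0.081 (edgeR adjusted p = 0.705, 0.566 and 0.705). The synthesis enzymes had a median of 0.16 with 17 of 19 positive, against 0.0015 over all genes tested with 50.3% positive. Ggps1 and Fdps, which take farnesyl diphosphate forward and make it, were the enzymes with values below 0, at -0.08 and -0.01. Without the 6 libraries of high thalamus markers Fdft1 passed the threshold, at 0.32 (adjusted p = 0.0382).

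With the transgenes present, in 5xFAD-Dp16 relative to 5xFAD, no member was called by edgeR, where 0.245% of all genes tested rose and 0.0584% fell. At an unadjusted p under 0.05 there were 9 members, where 19.1% of all genes tested passed. DESeq2 called 1 member, Hmgcs1, where it called 638 of all 17132 genes in either direction. Hmgcs1 was 1.3-fold (0.38 ± 0.096, edgeR adjusted p = 0.0995). Pmvk was the member whose groups did not overlap, with 5xFAD-Dp16 below 5xFAD, as in 3.89% of all genes tested (-0.22 ± 0.079, edgeR adjusted p = 0.164), and no member had 5xFAD-Dp16 wholly above 5xFAD, as did 3.46% of all genes tested. The synthesis enzymes had a median of 0.057 with 13 of 19 positive, against -0.03 over all genes tested with 45.6% positive. The direction of that median turned in limma on RPKM, where it was -0.015 with 8 positive, against -0.1 or -0.074 over all genes by pseudocount (0.1 or 1). It was 0.031 when the high-thalamus libraries were left out and 0.17 without 5xFAD 10, and between 0.088 and 0.091 without 5xFAD-Dp16 11, 5xFAD 6 or 5xFAD 15. This comparison turned on 5xFAD 10. Without it 7 members rose, namely Hmgcs1 (0.46), Fdft1 (0.38), Sqle (0.40), Srebf2 (0.48), Scap (0.26), Stard4 (0.34) and Cyp46a1 (0.40), with edgeR adjusted p between 0.0113 for Fdft1 and 0.0319 for Scap. In that fit 2045 of 17440 genes were called in either direction, against 52 of 17132 with that library. The 5xFAD libraries it keeps, 6, 13 and 15, all had high thalamus markers, as did only library 1 of 5xFAD-Dp16. The part of thalamus content in these calls was not tested. Without the 6 libraries of high thalamus markers, which keeps 5xFAD 10 as the lone 5xFAD library and assumes it to vary like the other groups, the differences of Sqle (-0.01), Scap (-0.01) and Cyp46a1 (-0.25) changed sign.

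Averaged with and without the transgenes, the duplication raised 1 member, Hmgcs1, and lowered none, where 0.432% of all genes tested rose and 0.0992% fell. The mean duplication effect on Hmgcs1 was 0.33 ± 0.068, or 1.26-fold (edgeR adjusted p = 0.0376). It stayed between 0.30 and 0.37 when libraries were left out in turn, and the call was lost in 10 of those 16 fits, in those without 5xFAD-Dp16 8, 9 or 11, 5xFAD 6 or 15, Dp16 3, 5 or 12, or WT 4 or 7. The synthesis enzymes had a median of 0.088 with 17 of 19 positive, against -0.016 over all genes tested with 46.4% positive. In limma on RPKM that median was 0.041 or 0.031 by pseudocount, with 14 positive, against -0.068 or -0.048 over all genes. Fdft1 followed Hmgcs1 at 0.29 ± 0.065 (adjusted p = 0.0647), and Stard4, Sqle, Srebf2 and Mvd had 0.22 to 0.24 (adjusted p = 0.141 to 0.243). Without 5xFAD 10, 8 members rose, and 1199 of 17440 genes were called, against 91 of 17132 with it. DESeq2 called 4 over all 16 libraries (Hmgcs1, Fdft1, Msmo1 and Stard4), where it called 484 of all 17132 genes in either direction.

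Whether the 2 genotypes add up on the log2 scale is given by the interaction, the difference in 5xFAD-Dp16 from WT minus the sum of the Dp16 and 5xFAD differences. No member was called in either direction with edgeR or with DESeq2, and neither was any of the 17132 genes tested (0%). At an unadjusted edgeR p under 0.05 there was 1 member, Pmvk, where 6.5% of all genes tested passed. The member median was -0.031, and that of the synthesis enzymes -0.051 with 5 of 19 positive, against -0.0049 over all genes tested with 49.3% positive. The synthesis median of the interaction was -0.17 when the high-thalamus libraries were left out, with 1 library in 5xFAD, and that of the members -0.072. With 1 library left out at a time the synthesis median was between -0.025 (without 5xFAD-Dp16 8) and -0.078 (without 5xFAD 15), and in limma on RPKM it was -0.086 or -0.083 by pseudocount, against -0.055 or -0.041 over all genes. Fdft1 had 0.53 in 5xFAD-Dp16 against a sum of 0.56, with an interaction of -0.03 (95% interval -0.31 to 0.24). For Sqle the values were 0.49 against a sum of 0.44 (interaction 0.05, -0.29 to 0.39), and for Stard4 0.71 against 0.62 (0.09, -0.19 to 0.36). These 3 genes lay close to their sums, but at 4 libraries a group their intervals still hold departures as large as -0.31 for Fdft1 and 0.39 for Sqle. Hmgcs1 was above its sum, at 0.51 against 0.41 (0.10, -0.19 to 0.39), and Mvd below it, at 0.49 against 0.58 (-0.09, -0.46 to 0.28). Npc2 had 0.69 against 0.80 (-0.11, -0.47 to 0.25) and Acat2 0.41 against 0.57 (-0.16, -0.40 to 0.08). The farthest from its sum relative to its error was Pmvk, at 0.07 against 0.32 (-0.25, -0.49 to -0.01, edgeR adjusted p = 0.718), and the farthest in size was Tm7sf2, at 0.19 against 0.50 (-0.31, -0.79 to 0.16). The comparisons set beside each other here share their WT, Dp16 and 5xFAD libraries.

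**Figure D3:**
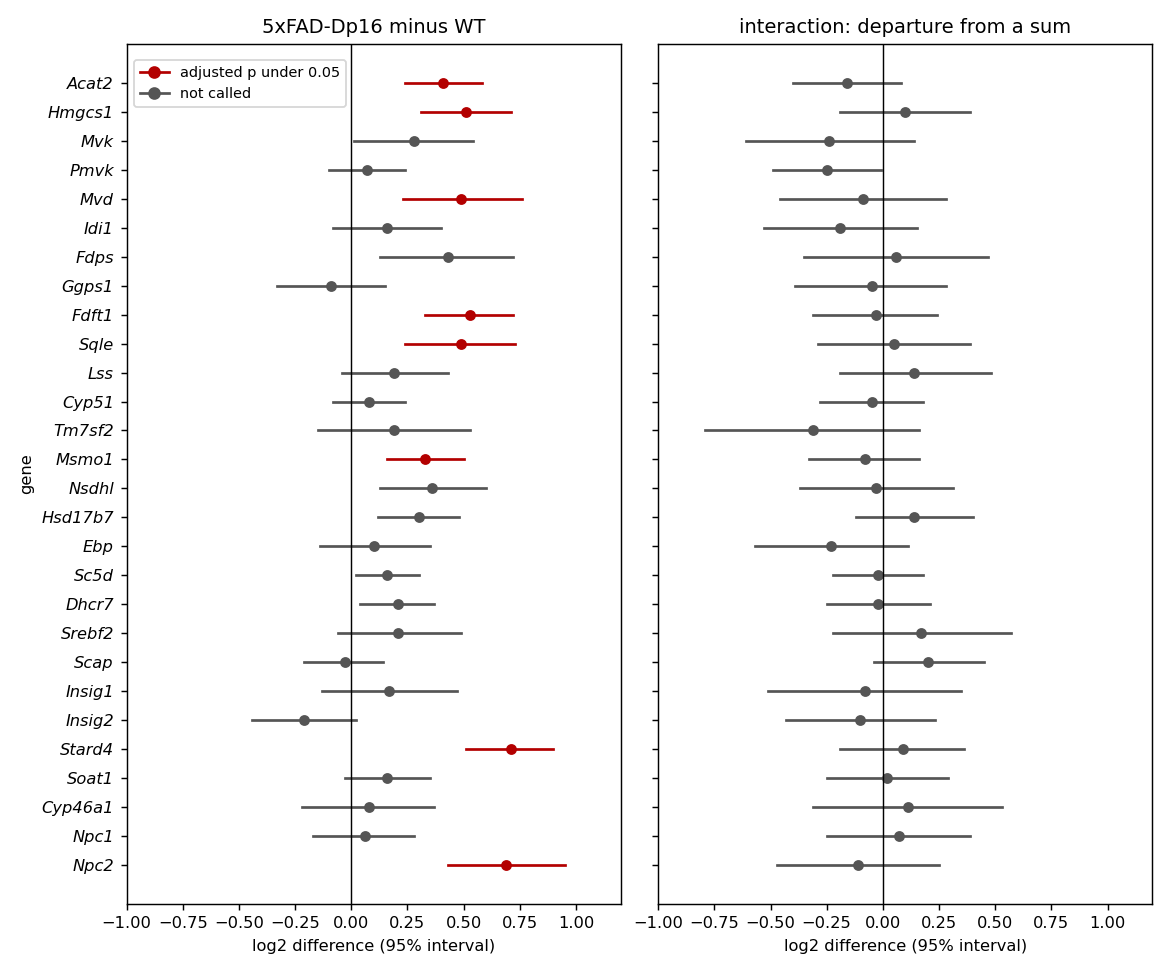
Log2 difference with its 95% interval for the 28 genes in 5xFAD-Dp16 minus WT (left) and for the interaction (right), red where the edgeR adjusted p was under 0.05. On the left 8 genes are red, up to 0.71 for Stard4, and on the right none is and the interval of Pmvk (-0.49 to -0.01) is the one that leaves out 0.

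As a summary of level per library, the mean log2 CPM of the 19 synthesis enzymes, set to 0 at the WT mean, was 0.27 ± 0.032 in 5xFAD-Dp16 (SD, n = 4, 0.25 to 0.31), 0.20 ± 0.085 in 5xFAD (0.11 to 0.31), 0.14 ± 0.032 in Dp16 (0.11 to 0.18) and 0.00 ± 0.059 in WT (-0.06 to 0.08). The 5xFAD-Dp16 libraries lay above all Dp16 and WT libraries, Dp16 lay above WT, and 5xFAD overlapped 5xFAD-Dp16 and Dp16. Within 5xFAD the score was 0.31 in library 10 and 0.11 to 0.18 in the other libraries. Library 10, highest of its group in this score, was the lowest of its group in mature oligodendrocyte markers. It was also the only 5xFAD library without high thalamus markers. The oligodendrocyte score was -0.42 in 5xFAD 10 and 0.74, 0.34 and 1.05 in 5xFAD 6, 13 and 15, against 0.03 to 0.29 in 5xFAD-Dp16, -0.43 to 0.38 in Dp16 and -0.11 to 0.17 in WT. In Dp16, library 14 was highest in both scores (0.18 for synthesis and 0.38) and library 12 lowest in both (0.11 and -0.43). The 14 markers summed to 6900 to 7990 CPM in 5xFAD-Dp16, 5260 to 13500 in 5xFAD, 5090 to 8220 in Dp16 and 5910 to 7400 in WT, and none was called between any pair of groups. All 14 were positive in 5xFAD relative to WT (median 0.52) and for the mean transgene effect (median 0.36), and 2 of 14 were called higher for that mean effect. Their part in the transgene differences of the enzymes was not tested. Astrocyte marker scores were 0.04 to 0.20 in 5xFAD-Dp16, 0.06 to 0.39 in 5xFAD, -0.10 to 0.00 in Dp16 and -0.05 to 0.13 in WT, and their part in the synthesis differences was not tested. With the oligodendrocyte score as a covariate the median over the synthesis enzymes was 0.32 in 5xFAD-Dp16, 0.23 in 5xFAD and 0.16 in Dp16, each relative to WT, and without the libraries of high thalamus markers 0.25, 0.27 and 0.13.

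**Figure D4:**
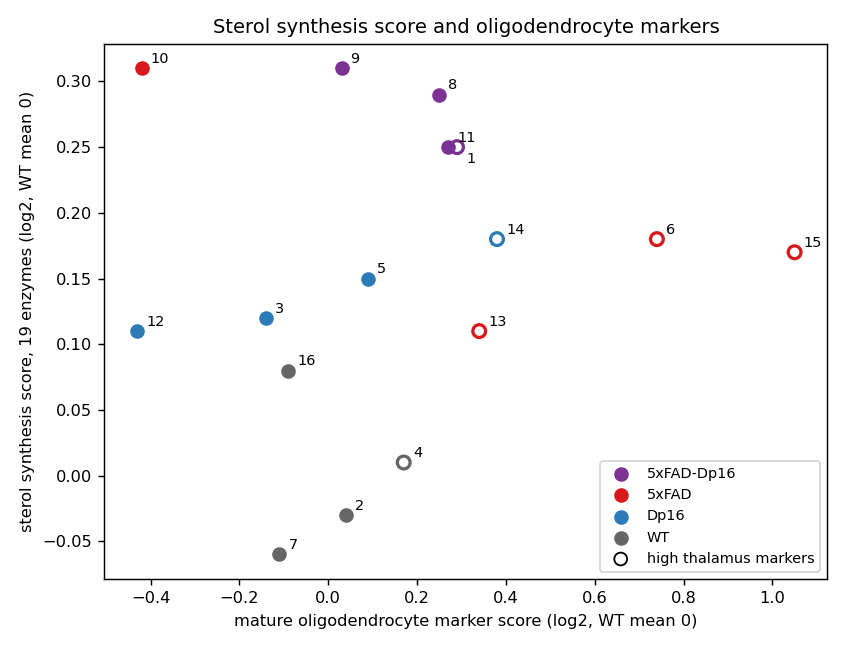
Sterol synthesis score (mean of 19 enzymes, vertical axis) against the mature oligodendrocyte marker score (horizontal axis), both log2 with the WT mean at 0, for each library, numbered by replicate, with open circles for the 6 libraries of high thalamus markers. 5xFAD 10 lies at the upper left (0.31 and -0.42), apart from 5xFAD 6, 13 and 15, and the WT libraries lie at the bottom (-0.06 to 0.08).

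The remaining enzymes were called between no pair of groups. Mvk, mevalonate kinase, averaged 22.1 ± 1.69 CPM in 5xFAD-Dp16, 23.1 ± 3.05 in 5xFAD, 20.6 ± 1.69 in Dp16 and 18.2 ± 3.42 in WT (SD, n = 4 each). Idi1, the isomerase that makes dimethylallyl diphosphate, stayed between 11.2 and 13.1 CPM in group means. Ggps1, which leads toward protein prenylation, was the enzyme with a negative log2 value in 5xFAD-Dp16 relative to WT, -0.09 ± 0.11 (edgeR adjusted p = 0.929). Hsd17b7 and Dhcr7, late steps of the route, were above WT without overlap in 5xFAD-Dp16, at 0.30 ± 0.086 and 0.21 ± 0.077 (adjusted p = 0.0844 and 0.284). Sc5d, the desaturase before Dhcr7, was also above without overlap at 0.16 ± 0.067, and so was Nsdhl at 0.36 ± 0.11 (adjusted p = 0.408 and 0.122). Lanosterol synthase, Lss, had 0.19 ± 0.11 and the demethylase Cyp51 0.08 ± 0.076, both overlapping WT. Ebp, the X-linked isomerase, had 0.10 ± 0.11, and Tm7sf2, the lowest by count, had 0.19 ± 0.16.

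No regulator was called by edgeR in any comparison over all 16 libraries, and at an unadjusted p under 0.05 there were 2 of 4 in 5xFAD-Dp16 relative to 5xFAD (19.1% of all genes tested), 1 in 5xFAD relative to WT (24.9%) and none in 5xFAD-Dp16 or Dp16 relative to WT. For the mean effects these were Insig1 for the transgenes (0.24 ± 0.10, edgeR adjusted p = 0.146), where 25.2% of all genes tested passed the unadjusted threshold, and Srebf2 for the duplication (0.23 ± 0.093, adjusted p = 0.243), where 16.9% did. Srebf2 had 282, 312, 330 and 298 CPM in 5xFAD-Dp16, 212, 314, 266 and 191 CPM in 5xFAD, 299, 318, 296 and 247 CPM in Dp16, and 266, 238, 277 and 271 CPM in WT. The 5xFAD-Dp16 libraries lay just above WT, and 5xFAD ranged from the lowest of all 16 to among the highest. The log2 differences from WT were 0.21 ± 0.13 in 5xFAD-Dp16, -0.10 ± 0.13 in 5xFAD and 0.14 ± 0.13 in Dp16 (edgeR adjusted p = 0.729, 0.678 and 0.997). Scap had 93.2 ± 10.4 CPM in 5xFAD against 108 ± 6.4 in WT (-0.21 ± 0.082, adjusted p = 0.122), and fell by 0.30 without 5xFAD 10 (adjusted p = 0.0113). In that fit 3486 of 17440 genes were called in either direction, against 1244 of 17132 with that library. The 5xFAD libraries it keeps all had high thalamus markers, and the part of thalamus content was not tested. Insig1, itself a known SREBP2 target, had 72.1, 67.7, 69.9 and 71.1 CPM in 5xFAD-Dp16, 77.2, 64.4, 64 and 98.6 CPM in 5xFAD, 49.7, 56.8, 59.9 and 78.8 CPM in Dp16, and 60.4, 67, 51.8 and 71.6 CPM in WT. The highest Insig1 values of 5xFAD-Dp16, of 5xFAD (most of whose libraries had high thalamus markers) and of Dp16 were in libraries of high thalamus markers. So was the lowest value of 5xFAD, in 5xFAD 13, and in WT such a library, WT 4, lay below WT 16. Its difference from WT in 5xFAD-Dp16 was 0.17 ± 0.14 (adjusted p = 0.85), and that of Insig2 -0.21 ± 0.11 (adjusted p = 0.601).

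Annotated exons of several members overlap those of other genes, and the strand setting of the authors' counting is not given in the sources used here, so shared reads cannot be told apart. The overlap that matters most by level is between Fdft1 and Ctsb, a lysosomal cathepsin on the opposite strand, over 774 bases or 18.3% of the Fdft1 exons. Ctsb averaged 763 ± 24.8 CPM in 5xFAD-Dp16, 896 ± 86 in 5xFAD, 563 ± 38.3 in Dp16 and 537 ± 14 in WT. Its order over the groups differed from that of Fdft1, which averaged 128 ± 4.93, 106 ± 17.2, 109 ± 7.75 and 88.7 ± 5.3 CPM in the same groups. Both genes rose in 5xFAD-Dp16 relative to WT, Ctsb 1.42-fold (edgeR adjusted p = 0.00135) and Fdft1 1.44-fold. Both rose for the mean transgene effect, 1.5-fold (adjusted p = 3.43e-06) and 1.18-fold. In Dp16 relative to WT they had 0.07 ± 0.083 and 0.30 ± 0.092, and in 5xFAD-Dp16 relative to 5xFAD -0.23 ± 0.083 and 0.27 ± 0.092. The part of shared reads was not tested. Tm7sf2 shares 12.1% of its exon bases with Vps51 on the same strand, and Ggps1, Cyp51 and Npc1 share 3.76% to 5.44% with Arid4b, Akap9 and Rmc1 on the other. The genes overlapping Hmgcs1, Idi1, Fdps, Lss and Scap had at most 15 counts in any library.

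Genes around the route were counted from 4 wider lists. Of 19 further synthesis genes and SREBP2 targets tested, none rose or fell in 5xFAD-Dp16 relative to WT with edgeR, where 3.1% of all genes tested rose and 0.0992% fell. At an unadjusted p under 0.05 there were 6, against 9.6% of all genes tested. In 5xFAD relative to WT 1 of the 19 rose and none fell, where 5.31% of all genes tested rose and 1.96% fell. It was Aldoc (0.46 ± 0.11, edgeR adjusted p = 0.0186), an astrocyte aldolase that is also among the astrocyte markers used here. Over both backgrounds the transgenes raised 3 of the 19 and lowered 1, where 6.61% of all genes tested rose and 1.98% fell. Among those that rose were Srebf1 (0.34) and Aldoc (0.30), and Acss2 fell (-0.16, edgeR adjusted p = 0.0219, 0.0238 and 0.0388). Of 17 genes of sterol efflux and uptake, 3 rose and 2 fell in 5xFAD relative to WT, where 5.31% of all genes tested rose and 1.96% fell. The lipid carrier Apoe rose 1.78-fold (0.84 ± 0.12, adjusted p = 0.000301), Clu had 0.43 ± 0.11 and Lcat 0.53 ± 0.13 (adjusted p = 0.023 and 0.0245), while the receptor Vldlr fell by 0.30 and the exporter Abcg4 by 0.27 (adjusted p = 0.0408 and 0.0485). In 5xFAD-Dp16 relative to Dp16, where 2.99% of all genes tested rose, 3 of the 17 did, namely the exporter Abca1 (0.63 ± 0.12), Apoe (0.59 ± 0.12) and Clu (0.42 ± 0.11; adjusted p = 0.00402, 0.00792 and 0.043). Lcat, which esterifies cholesterol on lipoproteins, was the 1 of 17 that rose in 5xFAD-Dp16 relative to WT, where 3.1% of all genes tested did (0.70 ± 0.13, adjusted p = 0.00448), with 49.4 ± 5.26 CPM in 5xFAD-Dp16, 44.6 ± 12.1 in 5xFAD, 47.3 ± 3.18 in Dp16 and 30.5 ± 2.33 in WT.

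Of 20 genes of sterol transport, esters and oxysterols tested, 3 rose and 1 fell in 5xFAD relative to WT, and 1 rose in 5xFAD-Dp16 relative to WT and 1 relative to Dp16. Over all genes tested, 5.31% rose and 1.96% fell in 5xFAD relative to WT, and 3.1% and 2.99% rose in 5xFAD-Dp16 relative to WT and to Dp16. The largest log2 difference was in Ch25h, the 25-hydroxylase known from activated microglia. Ch25h was near the floor in WT (0.144 to 0.555 CPM) and Dp16 (0.127 to 0.668 CPM), which makes the size of its differences uncertain. It averaged 2.28 ± 1.21 CPM in 5xFAD-Dp16, 3.8 ± 2.51 in 5xFAD, 0.412 ± 0.238 in Dp16 and 0.417 ± 0.192 in WT, and rose by 3.13 ± 0.55 on the log2 scale in 5xFAD relative to WT, by 2.41 ± 0.55 in 5xFAD-Dp16 relative to Dp16 and by 2.39 ± 0.55 relative to WT (edgeR adjusted p = 0.00209, 0.0199 and 0.0213). The lysosomal gene Lamp1 had 0.46 ± 0.092 in 5xFAD relative to WT (adjusted p = 0.0062), and the sterol transporter Gramd1b fell by 0.35 (adjusted p = 0.0289). None of 11 genes branching from farnesyl diphosphate was called in any comparison, and those at an unadjusted p under 0.05 in 5xFAD relative to WT were Fnta (0.39 ± 0.16) and Pdss2 (-0.34 ± 0.14; adjusted p = 0.15 and 0.154). Neither Dp16 relative to WT, 5xFAD-Dp16 relative to 5xFAD nor the interaction called any gene of the 4 lists.

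Between the sexes, females relative to males over all groups, no member was called in either direction, where 0.0642% of all genes tested were. At an unadjusted p under 0.05 there were 2, against 5.72% of all genes tested. These enzymes, Acat2 (-0.14 ± 0.057) and Mvd (-0.20 ± 0.088), had negative values, females minus males (edgeR adjusted p = 0.847 and 0.862), and DESeq2 also called none. The X-linked enzymes Nsdhl and Ebp were not called.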

How the data were processed

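The authors deposited raw read counts per gene for 16 libraries and RPKM values, each of which equals the count divided by the library total and by 1 length per gene. Per the labels' protocols, TRIzol was used for extraction, and libraries of poly-A RNA kept the strand. Per the submitters' processing notes, the build was GRCm38 and the tools included the aligner HISAT2 2.1.0 and the counter HTSeq 0.6.1, besides FastQC 0.11.5 and SAMtools 1.5, while the strand setting is not given in the sources used here.

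The deposited counts were tested in edgeR 4.0.16 (R 4.3.3). Low genes were removed with filterByExpr (minimum count 10), and TMM scaling gave factors between 0.9445 and 1.13. A robust quasi-likelihood model with group and sex was fitted to all 16 libraries, and p-values were adjusted by Benjamini-Hochberg over all 17132 genes tested, with calls below 0.05. Errors are the SE of the fit, intervals are 95%, and CPM are TMM-scaled. The 9 comparisons were 5 pairs of groups, the interaction, the mean effect of each genotype, and sex. Alternatives were DESeq2 1.42.0, limma 3.58.1 on log2 RPKM with a pseudocount of 0.1 or 1, no filter, no sex term, marker scores as covariates, and leaving libraries out. The edgeR steps were tested on simulated counts that changed genes in 5xFAD-Dp16 alone and held no differences in tissue content between libraries. Counts of libraries of the same group differed by more than sampling noise in every pair (chi-square per degree of freedom of at least 6.67), so each was counted once.

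Members, wider lists, marker lists and tests were chosen with earlier results of these data known. All 28 members are named, and from each wider list up to 4 called genes of smallest p, or else 2 by smallest p, in the comparisons described. Ctsb and other overlapping genes were also named for their position. A few genes that this rule would name are not reported here. Positions come from GENCODE M21 (GRCm38), which placed 55144 of 55385 genes, and sequences from RefSeq (GRCm38.p6), which gave a start window for 23 of the 28 members.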

Additional observations from a re-analysis of the deposited data

Results flagged for a closer look

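In groups of 4 libraries, the highest or lowest value was singled out when its gap to the nearest other value, as a share of the group's range, passed Dixon's critical value, which chance gives in about 1 of 20 groups. Over 112 groups of 4 (28 genes in 4 groups) this picked out 4, where 5.6 are expected. Stard4 was highest in 5xFAD 10, at 31.7 CPM with the other 5xFAD libraries at 26 to 26.4 CPM, which is within the 5xFAD-Dp16 range. Ggps1 was highest in Dp16 14, at 59.2 CPM with the others at 45.3 to 46.7 CPM, and Scap was lowest in the same library, at 96.1 CPM with the others at 108 to 110 CPM. Hsd17b7 was lowest in WT 4, at 16.6 CPM with the others at 19.2 to 19.5 CPM. Dp16 14 and WT 4 are libraries of high thalamus markers, and the part of neighbouring tissue in these values was not tested.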

How the results depend on the processing

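Numbers of members called moved by more than 1.5 times in these cases. With the oligodendrocyte score as covariate, 8 rose in 5xFAD relative to WT, 6 in 5xFAD-Dp16 relative to Dp16, 1 in 5xFAD-Dp16 relative to 5xFAD, 2 for the mean duplication effect and 1 in Dp16 relative to WT (Fdft1, also 1 without the high-thalamus libraries). That covariate gave 779, 583, 364, 314 and 54 of all 17132 genes called in these comparisons, in the same order and in either direction. With limma on RPKM, at either pseudocount, 8 rose in 5xFAD relative to WT, 13 for the mean transgene effect and 2 for the mean duplication effect. There 1425 to 1434, 1503 to 1507 and 98 to 101 of all 17132 genes were called, close to the 1244, 1473 and 91 of edgeR. The mean duplication effect gave 4 with DESeq2, 4 without the filter on low counts and 2 with the thalamus score as covariate. All genes called were 484 of 17132, 1447 of 32180 and 113 of 17132 in these fits. In 5xFAD-Dp16 relative to 5xFAD, DESeq2 gave 1 and no filter 2, with 638 of 17132 and 1656 of 32180 genes called. Fitting the 2 groups alone left 2 in 5xFAD relative to WT, with 516 of 16373 genes called. For all genes, the interaction gave 290 without the filter and 15 without the high-thalamus libraries, and no member in either. Leaving out 1 library at a time, the range was 0 to 7 risen in 5xFAD-Dp16 relative to 5xFAD, 5 to 10 in 5xFAD-Dp16 relative to WT, 4 to 9 for the mean transgene effect and 0 to 8 for the mean duplication effect, and 0 to 2 fallen in 5xFAD relative to WT and 0 to 1 for the mean transgene effect, both highest counts of falls without 5xFAD 10. The low of 5 came without 5xFAD-Dp16 9 or WT 4, and the low of 4 without Dp16 5 or 12. For the 4 ranges of rises, all genes called in either direction ran 32 to 2045, 435 to 589, 1050 to 3327 and 64 to 1199, of 17362 to 17479 tested. For the falls without 5xFAD 10, 3486 of 17440 genes were called in 5xFAD relative to WT and 3327 for the mean transgene effect. Signs changed for Cyp46a1 in 5xFAD relative to WT (0.30 without the high-thalamus libraries, 0.03 with the oligodendrocyte covariate), and, without the high-thalamus libraries, for Cyp46a1 (-0.25), Sqle (-0.01) and Scap (-0.01) in 5xFAD-Dp16 relative to 5xFAD and Cyp46a1 (-0.07) for the mean duplication effect. The causes were not tested. No paired analysis was possible because the replicate numbers are unique to each library.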
